A study of Rattus norvegicus with 16 samples.

Results

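High fat diet was compared with chow among male Wistar rats that had been separated from their mothers as pups, 4 libraries of the ELS-HFD group against 4 of the ELS group. Membership followed the sample labels, and these 8 libraries were taken from the 16 of the series. ELS stands for early-life stress, here maternal separation for 3 h per day over 16 days starting on postnatal day 1. Behaviour was scored in the elevated plus maze around day 57, and on day 60 both rearing groups were divided between chow and high fat diet. The ELS rats therefore carried separation and chow, and the ELS-HFD rats separation and high fat diet. The 2 groups reared without separation, named control on chow and HFD on high fat diet, supplied the same diet comparison in other libraries. The composition of the diet, its duration and the age at sampling are not stated in the labels. The labels call the material whole lysate of brain, and the description of the series names the amygdala. They do not say whether each library is a separate animal, so the spread behind each p-value is that of libraries and may be technical in part.

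The amygdala is a group of forebrain nuclei that links sensory and bodily signals to fear, anxiety and feeding. Its basolateral nuclei hold mainly glutamatergic projection neurons, and its central nucleus is built largely of GABA neurons that carry peptides such as corticotropin-releasing hormone, neurotensin and dynorphin. Cholinergic neurons of the basal forebrain lie just above it and send dense fibres into it, and the striatum and myelinated tracts border it. A bulk lysate therefore reads the makeup of the piece of tissue together with the activity of genes within its cells, and fewer cells of a type cannot be told apart from less RNA per cell.

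The 8 libraries held 12257798 to 15641528 counts each, within the 11438086 to 23629824 of all 16. Markers of neighbouring structures set several libraries apart before any comparison was made. On lists of marker genes, where a level is the mean log2 difference of the members from their mean over all 16 libraries, ELS 3 and ELS 4 were highest for myelin, at 1.03 and 0.87, and for cholinergic neurons, at 2.61 and 1.60. Choroid plexus transcripts were lowest in ELS-HFD 1 at -5.21, ELS 2 at -4.94 and ELS 1 at -2.32. Their part in the differences below was not tested, and values without ELS 3 and ELS 4, or without the 3 libraries poor in choroid plexus transcripts, are given beside the lists and many of the genes that they moved. The second set leaves ELS 3 and ELS 4 as the whole ELS group. Of 15 central amygdala marker genes 14 were tested, and the kinase gene Prkcd was at 10.6 to 28.3 CPM (counts scaled to library size) in these 8 libraries. Transcripts of these markers were thus present beside those of neighbouring structures, which does not by itself establish the region sampled.

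Of 14208 genes tested, 1 passed, and it was lower on high fat diet. Samd4a (ENSRNOG00000010489) encodes an RNA-binding protein of the Smaug family that represses translation of the messages it binds. Its levels in ELS 1 to ELS 4 were 16.5, 16.1, 18.4 and 15.5 CPM, and in ELS-HFD 1 to ELS-HFD 4 they were 9.96, 9.25, 11.8 and 9.28 CPM. Every ELS-HFD library lay below every ELS library, with a gap between the groups wider than the range within either. The mean fell from 16.6 ± 1.28 to 10.1 ± 1.21 CPM (SD, n = 4 each), a log2 fold of -0.72 ± 0.09 (SE), with an adjusted p = 0.0153 in the quasi-likelihood test of edgeR. This is 0.00704% of the genes tested. The call did not hold in all smaller fits. It was lost with only the ELS and ELS-HFD libraries in the fit (adjusted p = 0.794), and without ELS 1, ELS 2, ELS 3, ELS-HFD 1, ELS-HFD 2 or ELS-HFD 4 in turn (adjusted p = 0.0691, 0.0553, 0.0848, 0.101, 0.0997 and 0.111), while the log2 fold stayed between -0.82 and -0.67 over the 8 fits that left out 1 of these libraries. Without both ELS 3 and ELS 4 the log2 fold was -0.70 (adjusted p = 0.289).

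The promoter of Samd4a is shown because it belongs to the gene that passed. The window holds 250 bases before and 50 after the annotated start, from RefSeq on build GRCr8 at chr15:22727019-22727318, plus strand. A search of both strands for the E-box CACGTG, the box CCAAT, the GC box GGGCGG, the TATA box TATAAA and the cyclic AMP element TGACGTCA found no match to these letters, so it is printed without capitals.
Samd4a: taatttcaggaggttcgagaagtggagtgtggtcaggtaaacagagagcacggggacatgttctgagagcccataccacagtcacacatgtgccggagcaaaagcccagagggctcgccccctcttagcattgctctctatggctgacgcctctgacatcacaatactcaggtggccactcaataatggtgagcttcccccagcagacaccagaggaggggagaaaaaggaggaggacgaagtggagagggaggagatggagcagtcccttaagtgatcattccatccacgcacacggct

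Samd4a was also measured in the libraries reared without separation. It stood at 14.8, 15.4, 16.9 and 14.5 CPM in control 1 to control 4 and at 10.3, 9.84, 10.1 and 11.0 CPM in HFD 1 to HFD 4. The diet groups did not overlap there either, and the log2 fold of HFD against control was -0.58 ± 0.09, which did not pass in edgeR (adjusted p = 0.199). The difference between the 2 diet effects, tested as the separation-by-diet interaction, was not detected for Samd4a (unadjusted p = 0.293 in edgeR). Across both rearings the 8 libraries on high fat diet lay between 9.25 and 11.8 CPM and the 8 on chow between 14.5 and 18.4 CPM.

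No other gene passed, and the next smallest adjusted p in edgeR was 0.648. An unadjusted p under 0.05 was reached by 882 genes, or 6.21% of those tested, of which 342 were higher on high fat diet (2.41%) and 540 lower (3.80%). Without ELS-HFD 1 the count was 517. Log2 folds were above 0 for 49.4% of all genes and below 0 for 50.6%, their median was -0.0020, and the middle part of the distribution, from the lower to the upper quartile, ran from -0.09 to 0.08. DESeq2 called 5 genes (0.0352%), 4 of them lower, which were Samd4a, Smad7, Chat and Ngfr. The groups did not overlap for 172 genes higher on high fat diet (1.21%) and 188 lower (1.32%). In the authors' deposited table, 3 genes of 15580 were past all of the authors' thresholds (0.0193%), namely Samd4a with an adjusted p of 4.27e-07, Chat with 0.0201 and Ngfr with 0.0445, all lower. An adjusted p of at most 0.05 alone was held there by 5 genes (0.0321%). With p-values that the authors had corrected for their distribution, the authors' deposited table held 20 genes past the thresholds (0.128%), 7 higher and 13 lower.

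The 20 genes with the smallest p, 10 in each direction, were examined as values, and all but Samd4a had an adjusted p of 0.648 to 0.661 in edgeR. Having been chosen by this comparison, they were bound to separate the groups, and 19 of them did so without overlap. On the lower side, Smad7, the inhibitory SMAD of the TGF-beta pathway, was at 48.1, 46.0, 49.3 and 49.2 CPM in ELS 1 to ELS 4 and at 37.7, 35.9, 41.2 and 37.4 CPM in ELS-HFD 1 to ELS-HFD 4. The groups were narrow and apart, and its log2 fold was -0.34 ± 0.07. Relb, a subunit of the alternative NF-kappaB pathway, was at 5.09, 3.80, 4.56 and 4.63 CPM in ELS and 2.54, 2.70, 3.54 and 2.79 CPM in ELS-HFD, a log2 fold of -0.65 ± 0.15. Bach1, a haem-sensing repressor of oxidative stress genes, was at 7.51 ± 0.443 CPM in ELS and 5.42 ± 0.324 CPM in ELS-HFD, a log2 fold of -0.47 ± 0.11. Without ELS 3 and ELS 4 these 3 genes were at -0.32, -0.63 and -0.53.

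Slc6a9, which encodes the glycine transporter GlyT1, was at 115, 117, 163 and 157.1 CPM in ELS and 75.1, 87.3, 115 and 97.3 CPM in ELS-HFD, with a log2 fold of -0.56 ± 0.13. The myelin-rich ELS 3 and ELS 4 were its highest libraries, and without them the value was -0.32. The same held for Gamt, the last enzyme of creatine synthesis, at -0.35 ± 0.08 and -0.23 without both libraries, for Clic4, an intracellular chloride channel family protein, at -0.46 ± 0.11 and -0.24, and for Sox10, the master transcription factor of oligodendrocytes, at -0.61 ± 0.15 and -0.26. Trim16, a tripartite motif protein, was at -0.66 ± 0.16 and -0.70 without ELS 3 and ELS 4.

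On the higher side, Npy1r, the Y1 receptor for the feeding and anxiety peptide neuropeptide Y, was at 14.3, 15.9, 17.03 and 14.3 CPM in ELS and 23.8, 21.7, 23.9 and 19.01 CPM in ELS-HFD, with a log2 fold of 0.52 ± 0.13 that was 0.54 without ELS 3 and ELS 4. Gpr22, an orphan receptor, was at 0.66 ± 0.16, and the modulatory potassium channel subunit Kcns3 was at 0.69 ± 0.17. Rab3d, a small GTPase of regulated secretion, was at 25.6, 23.9, 24.0 and 25.2 CPM in ELS and 38.6, 32.3, 28.6 and 31.7 CPM in ELS-HFD. ELS-HFD 1 was its highest library, the groups did not overlap, and the log2 fold was 0.41 ± 0.09. Ttc26, a component of intraflagellar transport in cilia, was at 0.39 ± 0.09. The stress transcription factor Hsf2 was at 0.27 ± 0.06, Lonrf1, a RING finger protein, at 0.48 ± 0.11, and the membrane protein gene Tmem200a at 0.43 ± 0.11. Ly6l had the largest log2 fold of the 10, at 1.40 ± 0.33, on levels of 0.248 to 1.51 CPM.

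**Figure D1:**
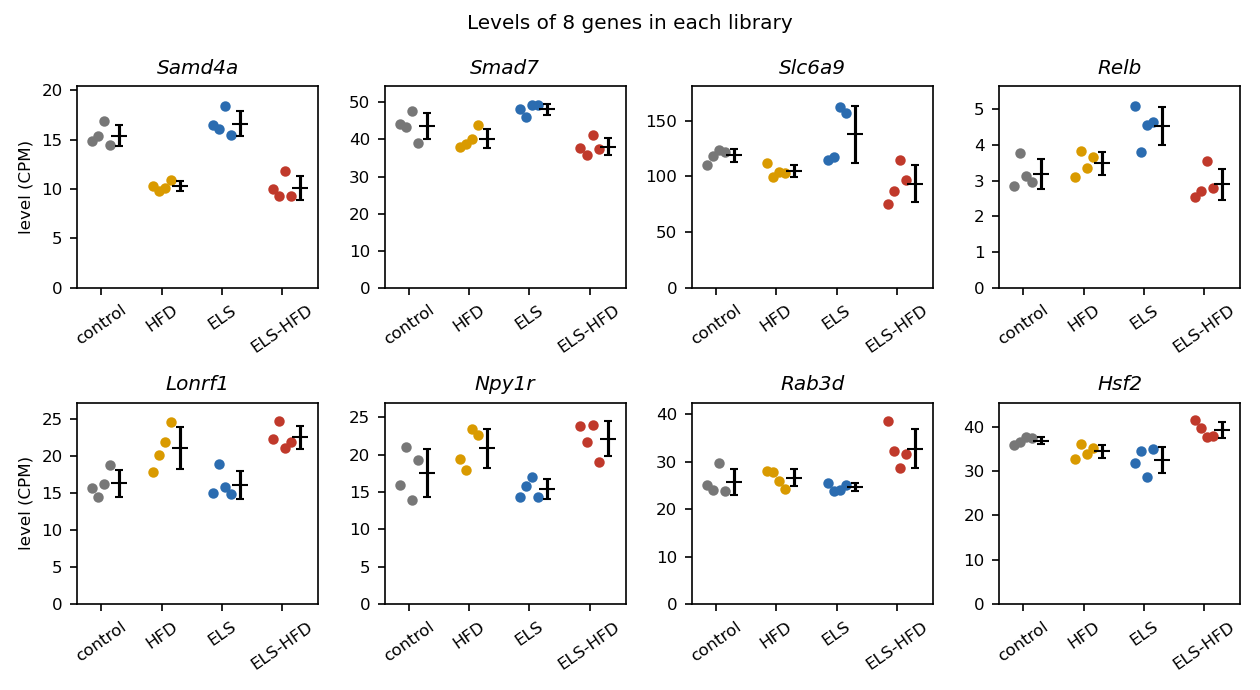
Levels in CPM (vertical axis, linear from 0) of 8 genes in the 16 libraries by group, with each library as a point and the mean ± SD of the 4 libraries beside it. Samd4a separates both diet pairs, while Smad7, Relb, Rab3d and Hsf2 separate ELS-HFD from ELS and not HFD from control.

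For all 20 genes the control mean and the HFD mean both lay between the ELS mean and the ELS-HFD mean. Because the genes were picked for a wide ELS to ELS-HFD distance, groups outside the choice are bound to fall inside it more often. The log2 fold of HFD against control had the same sign in 17 of the 20 and a smaller size in all 20, and its groups did not overlap for 3, where 0.648% of all genes were higher and 1.15% lower without overlap. An interaction with an unadjusted p under 0.05 in edgeR was reached by 11 of the 20, against 2.23% of all genes, and none passed after adjustment. The difference that chose these genes is part of the interaction, so small interaction p-values among them were favoured by the choice. Relb was at 2.86 to 3.77 CPM in control and 3.10 to 3.83 CPM in HFD, below its ELS mean of 4.52 CPM. Hsf2 was at 35.8 to 37.6 CPM in control and 32.8 to 36.1 CPM in HFD.

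Over all 14208 genes the log2 folds of the 2 diet comparisons, which share no library, had a Pearson correlation of 0.175 and a Spearman correlation of 0.169 across genes, which are not independent. The sign was the same for 56.8% of all genes and for 69.6% of the 882 with an unadjusted p under 0.05 among separated rats. HFD against control had 0 genes past the threshold in edgeR, 262 with an unadjusted p under 0.05 (1.84%) and 1 in DESeq2, Samd4a. Of the 262, 107 were higher (0.753%) and 155 lower (1.09%) on high fat diet, against 45.7% of all genes above 0 and 54.3% below, and 435 genes were under 0.05 without HFD 1. Both comparisons reached an unadjusted p under 0.05 for 30 genes, which are 3.40% of the 882 and 11.5% of the 262, where 16.3 would be the count if the lists were unrelated. The sign was shared by 23 of the 30. Lonrf1 was at 0.48 ± 0.11 among separated rats and 0.38 ± 0.11 among the others, and Jph1, a junctophilin that links surface membrane and internal calcium stores, at 0.33 ± 0.12 and 0.42 ± 0.12. Trim16 was at -0.66 and -0.33 and the sialyltransferase St6galnac3 at -0.44 and -0.24. The transcription factor Tfap4 was at -0.31 and -0.49, the receptor gene Gpr52 at 0.43 and 0.30 and the potassium channel subunit Kcng3 at 0.47 and 0.74, with only Tfap4 of these 3 under an unadjusted p of 0.05 in both. None of these genes other than Samd4a passed in either comparison.

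**Figure D2:**
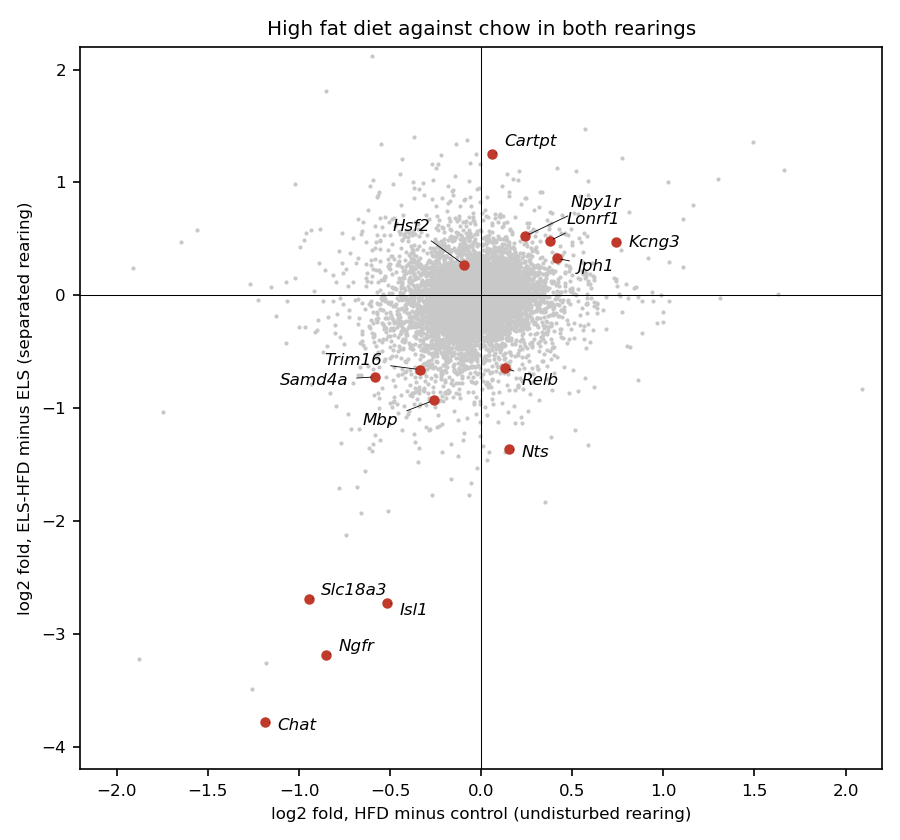
Log2 fold of high fat diet against chow for each of 14208 genes after undisturbed rearing (horizontal axis) and after separation (vertical axis), with 15 genes marked and 4 genes outside the axes. Samd4a and Trim16 are negative and Lonrf1, Jph1 and Kcng3 positive on both axes. Chat, Ngfr, Slc18a3 and Isl1 lie far lower on the vertical axis than on the horizontal, where Chat, Ngfr and Slc18a3 are also negative.

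The interaction held 0 genes past the threshold in edgeR and in DESeq2, and 317 with an unadjusted p under 0.05 (2.23%), while 50.7% of all genes had a value above 0. The 317 became 538 without control 3 and 624 without ELS-HFD 4. The genes with the smallest p were Hsf2 (unadjusted p = 0.00103), Plekhg6 (0.00143) and Ly6l (0.00151) with a more positive diet difference among separated rats, and Relb (0.00194), Tango6 (0.00368) and Nol12 (0.00415) with a more negative one, each with an adjusted p = 1.00 in edgeR. Plekhg6, a guanine nucleotide exchange factor, was at 0.68 ± 0.21 among separated rats and -0.48 ± 0.21 among the others. Nol12, a nucleolar RNA-binding protein, was at -0.21 ± 0.09 and 0.22 ± 0.09, and Tango6 at -0.14 ± 0.09 and 0.29 ± 0.09.

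Cell type markers and pathways were described by lists, and no member of 37 lists passed in edgeR. The counts below are of members with an unadjusted p under 0.05, to be read against 2.41% of all genes higher and 3.80% lower. The lists furthest from 0 were cholinergic neurons and myelin on the lower side, followed by striatal and central amygdala neurons, while excitatory projection neurons had the most positive median among lists with more than 3 tested members.

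**Figure D3:**
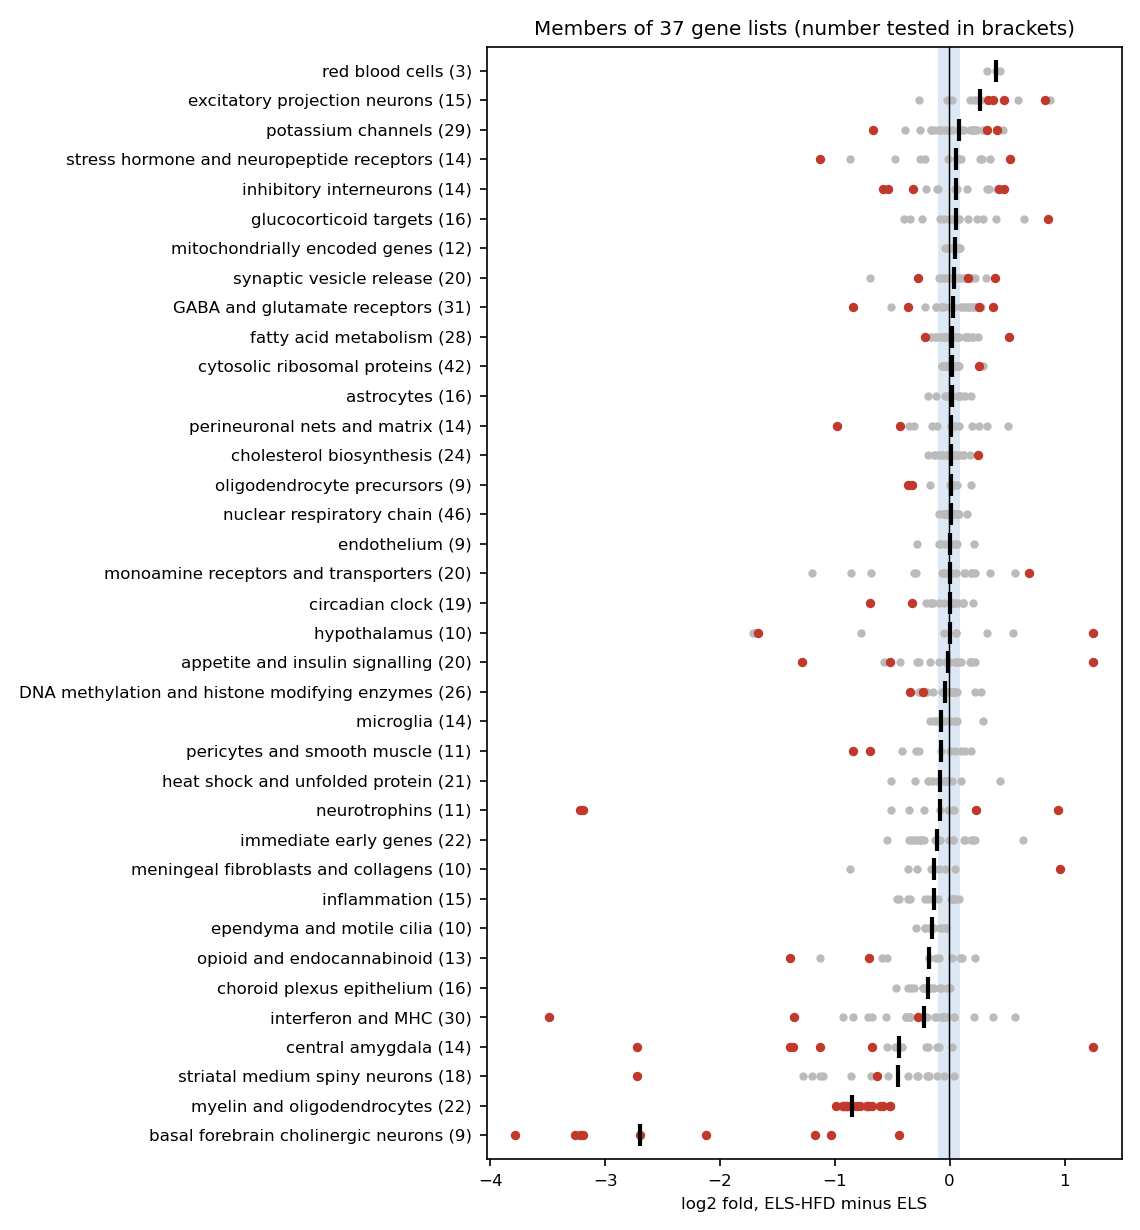
Log2 fold of ELS-HFD against ELS (horizontal axis) for each tested member of 37 gene lists, with members at an unadjusted p under 0.05 in red, the others in grey and the list median as a black bar. The shaded band spans the quartiles of all genes, -0.09 to 0.08. All 22 myelin and all 9 cholinergic members are red and negative.

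Genes of basal forebrain cholinergic neurons had the largest log2 folds. All 9 were negative with an unadjusted p under 0.05, with a median of -2.69. In HFD against control all 9 were negative as well, with a median of -0.85, as were all members of several glial and vascular lists. Cholinergic levels were -0.15, 0.55, 0.89 and -0.88 in control 1 to control 4 and -0.56 to -0.34 in HFD. Control 4 thus lay below every HFD library. No cholinergic member had an interaction with an unadjusted p under 0.05 in edgeR. Chat, the enzyme that makes acetylcholine, was at 1.72, 0.909, 16.8 and 6.07 CPM in ELS 1 to ELS 4 and 0.481, 0.135, 0.301 and 0.908 CPM in ELS-HFD 1 to ELS-HFD 4. ELS 3 and ELS 4 carried most of the ELS level, and although the groups did not overlap, ELS 2 and ELS-HFD 4 were almost equal. The underlying counts were 22, 11, 262 and 84 in ELS and 7, 2, 4 and 14 in ELS-HFD. The log2 fold was -3.78 ± 0.89 and did not pass in edgeR (adjusted p = 0.648), whereas DESeq2 gave an adjusted p = 0.0227. Leaving out ELS 3 and ELS 4 moved it to -1.51 (unadjusted p = 0.0838 in edgeR). Slc18a3, the transporter that loads acetylcholine into vesicles, was at 1.10, 1.16, 14.1 and 6.22 CPM in ELS and 0.893, 0.405, 0.828 and 1.36 CPM in ELS-HFD, and the groups overlapped. Ngfr, the low-affinity nerve growth factor receptor that marks these neurons, was at 1.57, 1.24, 28.5 and 12.3 CPM in ELS and 1.03, 1.55, 0.753 and 1.43 CPM in ELS-HFD. ELS 1 and ELS 2 were thus at the level of the ELS-HFD libraries. The log2 folds of Slc18a3 and Ngfr were -2.69 and -3.19 in all libraries and -0.37 and -0.24 without ELS 3 and ELS 4 (unadjusted p = 0.532 and 0.685 in edgeR).

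Other cholinergic members followed ELS 3 and ELS 4 to different degrees. The transcription factor genes Lhx8 and Gbx1 were at -3.26 ± 0.95 and -2.12 ± 0.62, the latter at -1.11 without ELS 3 and ELS 4. Slc5a7, the choline uptake transporter, was at -1.17 ± 0.36. Nkx2-1, a transcription factor of the ventral forebrain, was at 5.33, 5.70, 8.48 and 4.99 CPM in ELS and 1.99, 2.77, 3.09 and 4.15 CPM in ELS-HFD, without overlap and with a log2 fold of -1.03 ± 0.32. Ache, which breaks acetylcholine down, was at 81.8, 77.1, 68.5 and 60.7 CPM in ELS and 46.7, 57.5, 46.1 and 61.9 CPM in ELS-HFD, and here ELS 1 and ELS 2 were the highest. Slc10a4, a vesicular transporter family gene of cholinergic and monoaminergic neurons that is not in the list, was at 5.64, 5.12, 15.6 and 8.10 CPM in ELS and 1.24, 1.69, 2.41 and 3.83 CPM in ELS-HFD. Its groups did not overlap, and its log2 fold was -1.91 ± 0.47, or -1.24 without ELS 3 and ELS 4. For the list, the median without both libraries was -0.59 with 2 of 9 members under 0.05, and without ELS 3 alone it was -1.70. Without ELS 1, ELS 2 and ELS-HFD 1 it was -3.54 with 8 members under 0.05.

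Chat and Slc18a3 share a locus, in which Slc18a3 lies inside Chat on the same strand and the annotated starts are 602 bases apart, so their reads may not be fully separable in gene counts. Their promoter windows, 250 bases before to 50 after each start from RefSeq on build GRCr8, minus strand, are shown because both genes had the same pattern over the libraries. Capitals mark CACGTG and CCAAT in the Chat window at chr16:7723367-7723666 and GGGCGG in the Slc18a3 window at chr16:7722765-7723064, from a search of both strands, in which these matches do not overlap. Among 33469 promoter windows of the same length, CACGTG was in 6.42%, CCAAT in 37.5%, GGGCGG in 33.1%, TATAAA in 14.2% and TGACGTCA in 1.83%, and the last 2 were in neither window.
Chat: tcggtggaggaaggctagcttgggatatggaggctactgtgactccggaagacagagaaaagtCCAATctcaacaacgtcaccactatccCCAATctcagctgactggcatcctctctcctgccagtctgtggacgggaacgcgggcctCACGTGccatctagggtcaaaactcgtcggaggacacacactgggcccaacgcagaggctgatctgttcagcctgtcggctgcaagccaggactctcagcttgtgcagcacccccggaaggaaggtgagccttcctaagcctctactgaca
Slc18a3: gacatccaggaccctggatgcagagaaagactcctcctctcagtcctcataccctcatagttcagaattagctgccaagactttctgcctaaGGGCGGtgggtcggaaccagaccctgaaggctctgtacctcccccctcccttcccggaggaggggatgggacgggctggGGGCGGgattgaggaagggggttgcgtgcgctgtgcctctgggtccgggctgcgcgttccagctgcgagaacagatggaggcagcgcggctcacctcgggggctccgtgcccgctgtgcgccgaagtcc

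Myelin and oligodendrocyte genes were lower by a more even amount. All 22 tested members were negative with an unadjusted p under 0.05, between -0.99 and -0.52, with a median of -0.85. In HFD against control all 22 were negative as well, with a median of -0.24. An all-negative list was not particular to myelin there. All tested members were negative for astrocytes (16), endothelium (9), pericytes and smooth muscle (11), oligodendrocyte precursors (9) and red blood cells (3). Myelin levels were -0.04 to 0.25 in control, highest in control 4, and -0.27 to 0.01 in HFD. No myelin member had an interaction with an unadjusted p under 0.05 in edgeR. Mbp, which encodes myelin basic protein, was at 2957, 2774, 7521 and 5964 CPM in ELS and 1716, 2220, 3983 and 2157 CPM in ELS-HFD, a log2 fold of -0.93 ± 0.30. Mag, a myelin adhesion protein, was at 150, 135, 306 and 303 CPM in ELS and 80.2, 118, 180 and 116 CPM in ELS-HFD, a log2 fold of -0.86 ± 0.26. ELS 3 and ELS 4 stood at about the same height above ELS 1 and ELS 2 for these genes, and ELS-HFD 3 above the latter, so that no member of the list separated the groups. Fa2h, which makes hydroxylated myelin lipids, was at -0.99 ± 0.30, Hapln2 of the nodal matrix at -0.90 ± 0.27, the surface glycoprotein Mog at -0.80 ± 0.27 and Myrf, the transcription factor of myelination, at -0.52 ± 0.18. Without ELS 3 the list median was -0.55 with 13 members under 0.05, and without both ELS 3 and ELS 4 it was -0.15 with 1. Mag, Fa2h and Hapln2 were then at -0.22, -0.30 and -0.21. Leaving out ELS 1, ELS 2 and ELS-HFD 1 gave a list median of -1.15 with all 22 members under 0.05.

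Oligodendrocyte precursor genes did not share that level. Of 9 tested, 2 were under 0.05, the lineage factors Olig1 at -0.36 ± 0.11 and Olig2 at -0.33 ± 0.12, and the median was 0.01. Both were closer to 0 without ELS 3 and ELS 4, at -0.11 and -0.08. Several of the 20 genes past the authors' thresholds after their correction were highest in ELS 3 and ELS 4, including Carns1, the carnosine synthase, at 9.33, 8.68, 17.6 and 21.5 CPM in ELS and 6.18 to 9.04 CPM in ELS-HFD. Its log2 fold of -1.02 ± 0.28 was -0.36 without both libraries. The matrix protease gene Adamts4 was at 21.8, 21.8, 41.7 and 45.7 CPM in ELS and 9.75 to 21.8 CPM in ELS-HFD, with log2 folds of -0.98 ± 0.25 in all and -0.40 without ELS 3 and ELS 4. Josd2, a deubiquitinase, was at -0.61 ± 0.16 in all and -0.29 without both. Hhatl, in contrast, was at 5.25, 3.47, 5.21 and 5.35 CPM in ELS and 1.72 to 2.73 CPM in ELS-HFD, with -1.08 ± 0.29 in all and -0.95 without both.

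Of 14 tested central amygdala genes none passed, 12 were negative and 2 positive, and 5 were under 0.05 on the lower side and 1 on the higher side. The median was -0.44. Without ELS 3 and ELS 4 it was -0.58, with 5 members under 0.05 on the lower side, and without the 3 libraries poor in choroid plexus transcripts it was -0.25, with 2. Nts, which encodes neurotensin, was at 20.8, 18.9, 21.9 and 10.3 CPM in ELS and 3.64, 5.47, 7.83 and 11.0 CPM in ELS-HFD, a log2 fold of -1.36 ± 0.44. ELS 4 and ELS-HFD 4 overlapped, and the other libraries of the groups were apart. Crh, which encodes corticotropin-releasing hormone, was at 4.62, 9.75, 5.98 and 7.59 CPM in ELS and 1.17, 2.90, 3.77 and 4.87 CPM in ELS-HFD, a log2 fold of -1.13 ± 0.40. Pdyn, the precursor of the dynorphin opioids, was at 48.5, 39.6, 81.8 and 53.4 CPM in ELS and 9.34, 17.1, 17.2 and 41.5 CPM in ELS-HFD, a log2 fold of -1.39 ± 0.47. In each of these 3 genes ELS-HFD 1 was the lowest and ELS-HFD 4 the highest ELS-HFD library.

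Isl1, a transcription factor of striatal and central amygdala precursors, was at 1.72, 3.88, 7.07 and 4.12 CPM in ELS and 0.137, 0.135, 0.678 and 1.56 CPM in ELS-HFD. Its groups did not overlap, and the log2 fold of -2.72 ± 0.77 rests on 2, 2, 9 and 24 counts in ELS-HFD. Prkcd, the kinase of a class of central amygdala GABA neurons, was at -0.68 ± 0.28. Cartpt, the precursor of the appetite-suppressing peptide CART, went the other way, at 9.09, 13.7, 5.27 and 7.01 CPM in ELS and 34.5, 25.0, 15.7 and 7.72 CPM in ELS-HFD, a log2 fold of 1.25 ± 0.39 that was 0.85 without ELS 3 and ELS 4. ELS-HFD 1 was the highest library for Cartpt and the lowest for Nts, Crh, Pdyn and Prkcd. The interaction had an unadjusted p under 0.05 in edgeR for Nts (0.0231), Crh (0.0289), Cartpt (0.0420), Pdyn (0.0462) and Isl1 (0.0477), none of which passed after adjustment. These are 5 of 14 tested members, against 2.23% of all genes. The difference between ELS-HFD and ELS is part of the interaction, so genes with a wide difference there were more likely to reach it. HFD against control was near 0 for Nts, Crh, Pdyn and Cartpt, at 0.15, 0.19, 0.04 and 0.06. Control 4, at 5.10 CPM for Nts and 2.14 CPM for Crh, lay between ELS-HFD 1 and ELS-HFD 2 on both genes. Its level on the central amygdala list, -0.98, was the lowest of all 16 libraries and lowered the control mean. Control 1 to control 3 were at -0.01, 0.30 and 0.59, and the HFD libraries at 0.08 to 0.30.

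**Figure D4:**
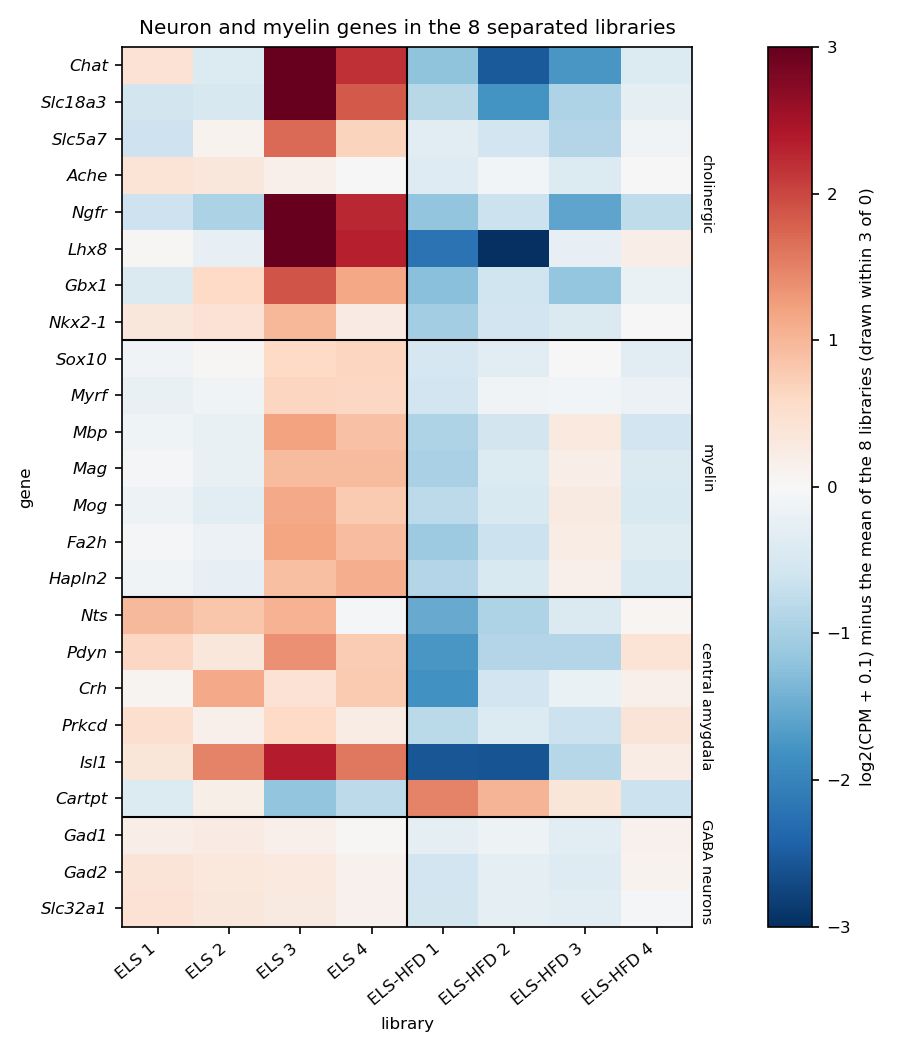
Colour plot of log2(CPM + 0.1) minus the mean of the 8 libraries for 24 genes (vertical axis, grouped as cholinergic, myelin, central amygdala and GABA neurons) in ELS 1 to 4 and ELS-HFD 1 to 4 (horizontal axis), with red higher and blue lower and 5 values beyond 3 drawn at 3. Myelin genes and many cholinergic genes, though not Ache or Nkx2-1, are reddest in ELS 3 and ELS 4. GABA genes and central amygdala genes other than Cartpt are red in most ELS libraries and blue in ELS-HFD 1 to 3.

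Genes for GABA synthesis and vesicle loading had negative values. Slc32a1, the vesicular GABA transporter, was at 238, 224, 214 and 193 CPM in ELS and 121, 145, 141 and 172 CPM in ELS-HFD, and Gad2, a GABA-synthesising enzyme, at 610, 581, 578 and 508 CPM and 315, 391, 359 and 502 CPM. The groups did not overlap for either, with ELS-HFD 4 closest to ELS. The log2 folds of Slc32a1 and Gad2 were -0.58 ± 0.20 and -0.54 ± 0.20, and Gad1 was at -0.32 ± 0.13. Without ELS 3 and ELS 4, Slc32a1, Gad2 and Gad1 were at -0.68, -0.61 and -0.38. Without ELS 1, ELS 2 and ELS-HFD 1, Slc32a1, Gad2 and Gad1 were at -0.42, -0.38 and -0.21, and none had an unadjusted p under 0.05 (0.138, 0.173 and 0.235 in edgeR). A pair of interneuron peptide genes had positive values, Cck, for cholecystokinin, at 0.48 ± 0.21 and Vip, for vasoactive intestinal peptide, at 0.43 ± 0.20, so that the interneuron list as a whole had a median of 0.05, with 2 of 14 members under 0.05 on the higher side and 3 on the lower. Cck was at 0.15 without ELS 3 and ELS 4 and 0.85 without the choroid-poor libraries, and the list median was -0.08 and 0.20. Levels in the control group spread more widely than the ELS to ELS-HFD distance, from 120 to 282 CPM for Slc32a1.

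Striatal medium spiny neuron genes had 17 of 18 negative values and a median of -0.45, with 2 members under 0.05. Rasd2, a striatal small GTPase, was at 158, 155, 232 and 153.01 CPM in ELS and 92.2, 82.0, 83.5 and 194 CPM in ELS-HFD, a log2 fold of -0.63 ± 0.27. ELS-HFD 4 lay far above the other 3 ELS-HFD libraries, and without it the value was -1.02. The dopamine receptor genes Drd2 and Drd1 and the enkephalin precursor Penk were at -1.20 ± 0.61, -0.69 ± 0.39 and -1.13 ± 0.58, none under 0.05, with ELS-HFD 4 again highest in its group. Leaving out ELS-HFD 4 moved Drd2, Drd1 and Penk to -2.41, -1.32 and -1.94, with each then at an unadjusted p under 0.05 in edgeR. Leaving out ELS 3 alone moved Drd2 to -0.76. The list stood at 1.17 in ELS 3 and 0.66 in ELS-HFD 4, and its median depended on both. Without ELS-HFD 4 it was -0.73, with all 18 members negative and 11 under 0.05. Without ELS 3 it was -0.15 with 1 member under 0.05 on the lower side, and without ELS 3 and ELS 4 it was -0.02. Without the choroid-poor libraries it was -0.60, with 5 members under 0.05 on the lower side.

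Excitatory projection neuron genes had 13 of 15 positive values, a median of 0.27 and 4 members under 0.05. Slc17a7, the vesicular glutamate transporter of cortical-type neurons, was at 1659, 1631, 987 and 1599 CPM in ELS and 2015, 1838, 1700.2 and 1867 CPM in ELS-HFD, without overlap. ELS 3 stood alone as the lowest, and the log2 fold of 0.34 ± 0.15 was 0.16 without ELS 3 and ELS 4. The transcription factors Fezf2 and Neurod1 were at 0.47 ± 0.18 and 0.83 ± 0.38, and the NMDA receptor subunit Grin2a at 0.38 ± 0.15. Bhlhe22, another transcription factor of projection neurons, was at 102, 136, 55.8 and 72.5 CPM in ELS and 240, 184, 151 and 99.2 CPM in ELS-HFD, a log2 fold of 0.88 ± 0.26. Fezf2 and Bhlhe22 were at 0.20 and 0.49 without ELS 3 and ELS 4. No member of the list was under 0.05 without ELS 3, when the median was 0.15, or without ELS-HFD 2, when it was 0.28. Without ELS 3 and ELS 4 the list median was 0.16, with 0 members under 0.05 on the higher side and 1 on the lower. Without the choroid-poor libraries it was 0.39, with 4 members under 0.05, all on the higher side.

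**Figure D5:**
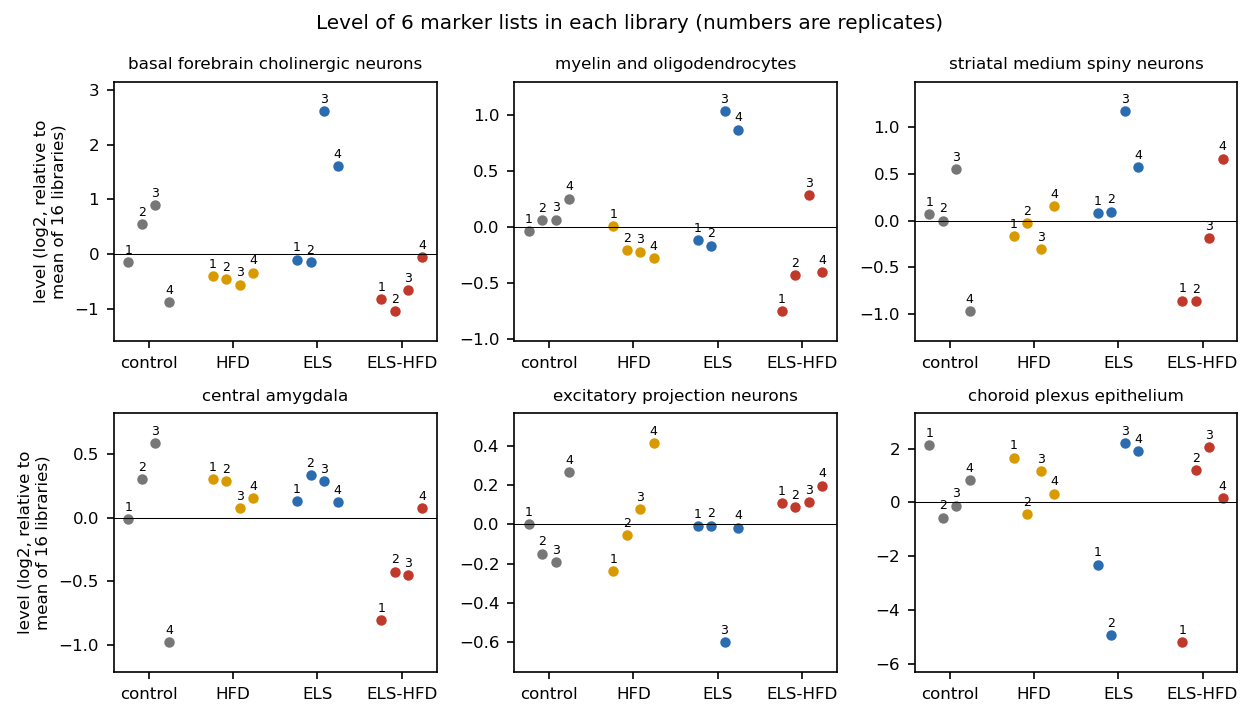
Level of 6 marker lists (vertical axis, mean log2 difference from the mean of all 16 libraries) in each library by group (horizontal axis), with the replicate number above each point. ELS 3 and ELS 4 stand above all other libraries for cholinergic and myelin genes, and ELS 1, ELS 2 and ELS-HFD 1 far below the others for choroid plexus.

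Other receptor and peptide genes that bear on feeding and stress were few. In the appetite and insulin list 1 of 20 members was under 0.05 on the higher side, Cartpt, and 2 on the lower side. Calcr, the calcitonin and amylin receptor, was at 7.76, 9.34, 3.92 and 3.98 CPM in ELS and 0.893, 3.71, 2.86 and 2.73 CPM in ELS-HFD, a log2 fold of -1.28 ± 0.48. Its groups did not overlap, with ELS 3 and ELS 4 close to ELS-HFD 2, and the rats reared without separation spanned 4.19 to 15.1 CPM in control and 3.20 to 8.11 CPM in HFD. ELS 1 and ELS 2 were the highest ELS libraries and ELS-HFD 1 the lowest of its group, and without these 3 the log2 fold of Calcr was -0.35 (unadjusted p = 0.529 in edgeR). Mc4r, the melanocortin receptor that curbs feeding, was at -0.52 ± 0.22, or -0.24 without ELS 3 and ELS 4. In the list of stress hormone and neuropeptide receptors, which also holds the hormone gene Crh itself, Npy1r was the member under 0.05 on the higher side. Crh, given above, was that on the lower side. Of 13 opioid and endocannabinoid genes 2 were under 0.05, Pdyn and the kappa opioid receptor Oprk1 at -0.70 ± 0.31. The hypothalamic peptide genes Gal and Avp, for galanin and vasopressin, were at -1.67 ± 0.64 and -1.71 ± 0.91, the latter on at most 44 counts in a library. Without ELS 1, ELS 2 and ELS-HFD 1, Oprk1 was at -0.21, Gal at -0.53 and Avp at 0.08, with unadjusted p = 0.587, 0.514 and 0.952 in edgeR. The glucocorticoid target Zbtb16 was at 0.86 ± 0.30, the only 1 of 16 such targets under 0.05, with a median of 0.05.

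Among transmitter receptors and channels, Adra2a, the alpha-2A adrenergic receptor, was at 0.69 ± 0.23 and the GABA-A subunit Gabra2 at 0.26 ± 0.08, while the glutamate receptor Grm3 was at -0.36 ± 0.12. Kcna4, a voltage-gated potassium channel, was at 0.33 ± 0.12. Adra2a, Gabra2 and Grm3 were at 0.33, 0.13 and -0.18 without ELS 3 and ELS 4, and Kcna4 was at 0.12 without the choroid-poor libraries. In the vesicle release list Cplx2 and Snap25, both of the fusion machinery, were at 0.39 ± 0.14 and 0.16 ± 0.07 and Vamp1 at -0.27 ± 0.09. The neurotrophin Ntf3 was at 0.94 ± 0.35, on 1.16 to 2.56 CPM in ELS and 1.66 to 5.84 CPM in ELS-HFD. The genes Sertm1, Klhl14 and Perp were at 0.95 ± 0.24, 1.34 ± 0.37 and 0.70 ± 0.19, and ELS-HFD 4 was the lowest ELS-HFD library for all 3.

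Metabolic, immune and chromatin lists had few members under 0.05. Lipid genes had 2 of 28 fatty acid members under 0.05, the lipid-sensing receptor Ppara at 0.52 ± 0.24 and the elongase Elovl5 at -0.22 ± 0.10, and 1 of 24 sterol synthesis members, Tm7sf2, at 0.25 ± 0.10. Elovl5 was at -0.02 without ELS 3 and ELS 4. Interferon and MHC genes had 25 of 30 negative values and a median of -0.23, with 3 under 0.05 that included the immunoproteasome subunit Psmb8 at -1.35 ± 0.44 and the interferon regulatory factor Irf1 at -0.28 ± 0.12, and the median was 0.09 without ELS 3 and ELS 4 and -0.48 without the choroid-poor libraries. Psmb8 was at 1.18 to 2.19 CPM in ELS and 0.473 to 0.904 CPM in ELS-HFD. Clock genes held Rora at -0.69 ± 0.23 and Cry1 at -0.33 ± 0.14 among 19, and the ribosomal list held Rps28 at 0.25 ± 0.08 among 42. The DNA methyltransferase Dnmt3a was at -0.23 ± 0.10 and Gadd45b, of the demethylation pathway, at -0.35 ± 0.16, the 2 members under 0.05 of 26 chromatin enzymes, with Gadd45b at -0.04 without ELS 3 and ELS 4. Smooth muscle genes held Tagln at -0.84 ± 0.31 and Acta2 at -0.69 ± 0.28, which were -0.20 and -0.31 without ELS 3 and ELS 4, and the meningeal collagen-binding gene Dcn was at 0.96 ± 0.41. No member was under 0.05 in the lists of astrocytes, microglia, endothelium, choroid plexus, ependyma, red blood cells, nuclear and mitochondrial respiratory chain, immediate early genes, inflammation, or heat shock and unfolded protein genes.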

How the data were processed

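RNA was sequenced in 16 brain samples, 4 per group. Per the labels' protocols, 15 ng of RNA was reverse transcribed with barcoded oligo-dT primers, pooled and linearly amplified. Build Rnor_6.0 and the tools STAR, HTSeq, cutadapt, Picard and DESeq2 are listed in the submitters' processing notes with no version or order. Strandedness and molecular identifiers are not stated. The deposited table holds raw counts for 15580 genes, per the file headers. It also holds the authors' normalized signal, each count divided by 1 factor per library (largest relative deviation 4.00e-05 at 200 or more counts), used only for that check. The authors' log2 fold changes, p-values and adjusted p-values, as first computed and as corrected for the distribution of p-values by an unstated method, are quoted only where their table is named. Their thresholds were an adjusted p of at most 0.05, a fold of at least 1.5 and a maximum count of at least 30, per the file headers.

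Raw counts were tested with edgeR 4.0.16 (R 4.3.3) and its quasi-likelihood F test, with TMM factors of 0.952 to 1.029, filterByExpr (minimum count 10, minimum total 15, leaving 14208 genes), and 1 mean per group over all 16 libraries. Contrasts were ELS-HFD minus ELS, HFD minus control, and their difference. P-values were adjusted by Benjamini-Hochberg over the 14208 genes with a threshold of 0.05. The SE of a log2 fold is its size over the root of F. DESeq2 1.42.0, other scalings and filters, a block on replicate number, a factor for the letter in the library name, and leaving out libraries were alternatives. Data were simulated for all 16 libraries with 14208 genes, from gene means over all 16, with changes put into the ELS-HFD libraries. In the same fit, 46%, 76%, 74% and 92% of 50 genes were recovered at log2 folds of 0.5, 0.75, 1 and 2, with 6 false calls. Genes were drawn independently, so differences shared by many genes of a library, such as those in myelin or choroid plexus transcripts, were not simulated. Intervals were not computed, and sequences came from RefSeq (GRCr8), where 3 of 4 promoters matched.

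Members and lists were chosen with earlier results of these data known. The genes named were the 10 with the smallest p per direction, skipping accession-like symbols (1 on the lower side), 2 to 4 members per list, genes past 0.05 in DESeq2 or the authors' table, and 3 per direction in the interaction. Other list members and the genes shared with HFD against control were named after their values were seen. Lists are described by counts and medians and were not tested. Some genes are not reported here. Genes with near or overlapping copies, and antisense pairs, are uncertain.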

Additional observations from a re-analysis of the deposited data

Results flagged for a closer look

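In 15 of 212 groups of 4 libraries examined, the highest or lowest library stood apart from the other 3 by the Dixon criterion at 95%, which chance alone meets in about 1 of 20 groups. Striatal genes gave 5 of these. Rasd2 was at 232 CPM in ELS 3 and 194 CPM in ELS-HFD 4, Drd1 at 41.5 CPM in ELS 3 and 40.1 CPM in ELS-HFD 4, and Drd2 at 32.6 CPM in ELS-HFD 4, each above the other libraries of its group. ELS 3 was also low for projection neurons, with Slc17a7 at 987 CPM and the list at -0.60. Further high values were Carns1 at 9.04 CPM in ELS-HFD 3, Zbtb16 at 12.9 CPM in ELS 4 and Gadd45b at 19.4 CPM in ELS-HFD 2. Low values were Trim16 at 2.47 CPM in ELS-HFD 1, Hhatl at 3.47 CPM in ELS 2, Tagln at 9.02 CPM in ELS-HFD 4, Tfap4 at 5.13 CPM in ELS 4 and Nol12 at 8.10 CPM in ELS 2.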

How the results depend on the processing

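Among the results of separated rats, the count of 1 gene past the threshold became 5 in DESeq2, 0 with only the ELS and ELS-HFD libraries in the fit, 0 without ELS 3 and ELS 4, and 115 (11 higher, 104 lower) without ELS 1, ELS 2 and ELS-HFD 1, where 19 of 22 myelin and 5 of 9 cholinergic genes passed and the ELS group was ELS 3 and ELS 4. It was 0 to 1 when each library of these groups was left out. For HFD against control the count of 0 became 1 in DESeq2, and the interaction stayed at 0 in all alternatives run. Samd4a had a log2 fold of -0.72 with only the compared groups (adjusted p = 0.794), -0.70 without ELS 3 and ELS 4 (adjusted p = 0.289) and -0.82 to -0.67 when each library was left out; its call held under the other scaling, both filters, DESeq2, the library letter (adjusted p = 0.0401) and each control or HFD library left out, the last chosen after seeing the data. Genes with an unadjusted p under 0.05 numbered 517 without ELS-HFD 1, 1183 without ELS 3 and ELS 4 and 1556 without ELS 1, ELS 2 and ELS-HFD 1, against 882; for HFD against control they numbered 172 under the stricter filter and 435 without HFD 1, against 262, and for the interaction 664 without ELS 1, ELS 2 and ELS-HFD 1, 944 without ELS 3 and ELS 4, 538 without control 3 and 624 without ELS-HFD 4, against 317. Without ELS 3 and ELS 4 the medians were 4.27 for choroid plexus, 1.38 for ependyma, 0.61 for meningeal, 0.50 for glucocorticoid target and 0.47 for inflammation genes. The sign of Avp reversed (0.078 without ELS 1, ELS 2 and ELS-HFD 1); the cause was not tested. A check of replicate numbers did not settle whether libraries were paired. Correlations of same-numbered ELS and ELS-HFD deviations ran from -0.30 to 0.65, with 2 of 4 over 0.1 and 2 of 4 ELS libraries closest to their own number. ELS 2 with ELS-HFD 1, of different numbers, reached 0.67. With the replicate block the count stayed at 1 and Samd4a at -0.72 (adjusted p = 0.0204). Members at low counts, such as Chat and Isl1 in ELS-HFD, are limited by depth.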
